A study of Fundulus heteroclitus with 15 samples.

Results

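An expression array of mummichog (Fundulus heteroclitus), an estuarine killifish, was searched for enzymes that break down amino acids in liver. The search returned 42 of its 7152 probes. Of these, 40 are named for such enzymes and 2 match by name only, and all 42 are called enzyme probes below. The probes were chosen by words in their annotated names, among them aminotransferase, formimidoyltransferase, 4-hydroxyphenylpyruvate, homogentisate, tryptophan 2,3-dioxygenase, homocysteine, S-adenosylmethionine synthetase, glutamate dehydrogenase, arginase, fumarylacetoacetase, histidine ammonia or urocanate. Glutamine synthetase, and a dehydratase acting on serine, were also searched for and matched 0 probes. The 42 probes carry 25 gene names, of which 8 have several probes. Letters after a symbol tell the probes of a gene apart, in the order of the array design's contig numbers.

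Liver RNA came from adult females only. There were 3 groups of 5 arrays, called biological replicates in the labels: fish held without EE2 (control), and fish kept for 14 days in water dosed with EE2 (ethinylestradiol, a synthetic estrogen used as a contraceptive) to 50 ng/L or 250 ng/L. The labels leave unstated if several fish were pooled for an array, so the tests measure the spread between arrays, and the number of arrays limits their precision. Replicate numbers below follow the order of the samples within each group and are not in the labels. The design asks how liver transcripts differ at each dose from control, and between the doses.

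Amino acids lose their nitrogen in liver mostly by transamination, in which aminotransferases pass the amino group on to make glutamate, and glutamate dehydrogenase then releases it as ammonia. The carbon skeletons follow separate routes: tyrosine is opened to fumarate and acetoacetate, histidine is taken through urocanate to glutamate and a one-carbon unit on folate, and homocysteine is methylated back to methionine. In fish, most of the ammonia leaves across the gills rather than as urea.

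Levels below are log2 processed signals relative to the 75th percentile of the same array, so a level of 0 is a probe as bright as that percentile. Levels of different probes are not comparable with each other. A shift is a difference between group means on this log2 scale, given with its standard error, and a call is a limma adjusted p (Benjamini-Hochberg over all probes tested) under 0.05. A probe was tested if its signal was well above background on 5 or more arrays, which 40 of the 42 probes and 6145 of all probes met, and 36 met it on all 15 arrays. AHCY, adenosylhomocysteinase, which splits S-adenosylhomocysteine into homocysteine and adenosine, was well above background on 0 arrays. ALT-e, one of the probes for alanine aminotransferase, was so on 3. These 2 probes were not tested.

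The array brightness and the tissue content varied. An array's 75th percentile of processed signal lay between 542.5 and 3575, and its geometric mean was 1847 for control, 1047 for low-dose and 1364 for high-dose arrays, and 75.6% to 91.7% of probes were well above background on an array. The arrays lay on 2 slides: slide 1 held 2 of the controls, 2 of the 50 ng/L group and 3 of the 250 ng/L group, and slide 2 the rest. Hepatocyte markers bore out the tissue label, with 31 of 33 probes well above background on all arrays and summed levels of 11.1 to 11.4 for control, 10.68 to 11.71 for low-dose and 10.66 to 11.69 for high-dose arrays. By limma, 1 hepatocyte probe was called higher in each comparison. The hepatocyte names searched include vitellogenin, whose share in the summed level was not tested. Exocrine pancreas markers were also present, as 55 of 62 probes were well above background on all arrays and 0 were at background on every array. Their summed level ran from 5.54 to 9.63 among control, 7.84 to 10.8 among low-dose and 8.22 to 11.2 among high-dose arrays. The median shift of these pancreas probes was 1.004 at the low and 1.098 at the high dose, with 0 called in either comparison by limma. Muscle markers, of which 14 of 54 probes were well above background on all arrays and 9 on none, had summed levels of 0.905 to 1.46 among control, 0.788 to 2.07 among low-dose and 1.42 to 4.36 among high-dose arrays, with 0 called by limma. Their part in the changes at 250 ng/L was not tested. Immune and red blood cell markers overlapped between the groups, at 3.51 to 6.49 and 6.78 to 7.86 over all arrays, with 1 red blood cell probe lower at 250 ng/L. Control replicate 2 had the lowest pancreas level and 250 ng/L replicate 3 the highest. In bulk tissue, fewer cells of a type and less RNA per cell cannot be told apart.

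The 250 ng/L dose moved 2 of the 40 enzyme probes past the threshold, both by a little over 1 log2 unit. FTCD, formimidoyltransferase-cyclodeaminase, which passes the one-carbon unit of histidine to folate, fell. GDH-a, a probe for glutamate dehydrogenase, rose. That is 5% of the tested enzyme probes, against 2.7% of all probes tested (2.05% higher and 0.651% lower). At an unadjusted p under 0.05 there were 10 enzyme probes, 5 higher and 5 lower, or 25% against 13.6% of all probes. Among them were SPT-a, SPT-b and SPT-c, all named for serine--pyruvate aminotransferase, and BHMT-a and BHMT-b, which lie on the same contig. That share thus counts some enzymes more than once. Shifts were above 0 for 22 probes and below 0 for 18. Their median was 0.09, against -0.05 over all probes, and the median size of a shift was 0.364 against 0.275. Groups did not overlap for 3 enzyme probes (GDH-a and BHMT-a higher, FTCD lower), against 4.41% of all probes, 2.49% higher and 1.92% lower.

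At 50 ng/L, 0 of the 40 enzyme probes were called by limma, against 0.553% of all probes. At an unadjusted p under 0.05 there were 4, 1 higher and 3 lower, which is 10% against 4.1% of all probes. The lower ones were SPT-a, SPT-b and SPT-c, so this share counts serine--pyruvate aminotransferase more than once. Groups did not overlap for 0 enzyme probes, against 1.2% of all (0.83% higher and 0.374% lower). Between the doses 0 of 40 were called by limma, against 1.09% of all probes (1.06% higher and 0.0325% lower), and 3 had an unadjusted p under 0.05, or 7.5% against 8.12%. The smallest adjusted p between the doses was 0.0531, for GDH-a. The doses did not overlap for 2 enzyme probes, GDH-a and ALT-c, against 2.93% of all. Comparisons with control share the control arrays, so their values are given side by side.

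**Figure D1:**
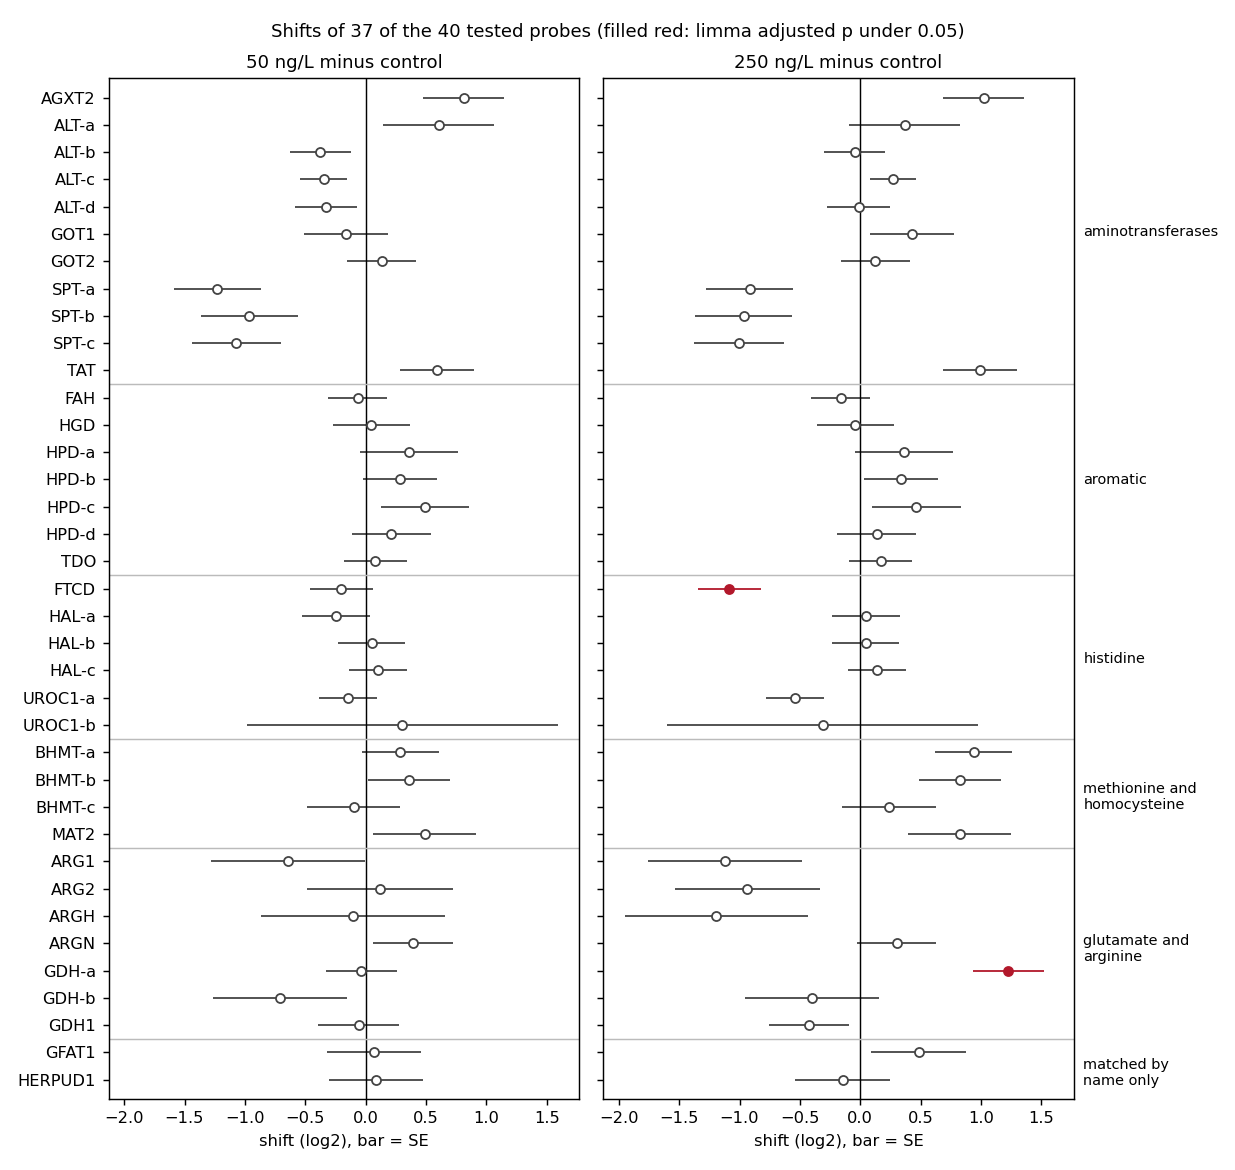
Shift on the log2 scale (x axis) of 37 of the 40 tested probes (rows, grouped by role) at 50 ng/L and at 250 ng/L against control, with bars for the standard error and filled red points for limma adjusted p under 0.05. The 2 filled points, FTCD at -1.09 and GDH-a at 1.23, are both in the 250 ng/L panel.

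FTCD acts at the end of histidine breakdown, after histidine ammonia-lyase, urocanate hydratase and imidazolonepropionase. On control arrays the FTCD level was 4.03, 3.57, 4.06, 3.54 and 3.95. Low-dose arrays gave 3.19, 3.12, 4.19, 3.77 and 3.89, and high-dose arrays 3.21, 2.22, 2.30, 2.85 and 3.17. Every 250 ng/L array lay below every control array, while the 50 ng/L arrays reached both ranges, with replicates 1 and 2 near the high-dose arrays. Those replicates were the 50 ng/L arrays of slide 1. Within slides the shift at 50 ng/L was -0.65 on slide 1 and 0.10 on slide 2. The mean was 3.83 ± 0.255 for control, 3.63 ± 0.461 for low-dose and 2.75 ± 0.471 for high-dose arrays (SD, n = 5 each). The shift at 250 ng/L was -1.09 ± 0.261 (limma adjusted p = 0.0349), which is 2.12-fold lower. At 50 ng/L it was -0.20 ± 0.261 (limma adjusted p = 0.999), and between the doses -0.88 ± 0.261 (limma adjusted p = 0.207).

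Within slides, with 2 or 3 arrays a group, the FTCD shift at 250 ng/L was -1.23 on slide 1 and -0.85 on slide 2. Neither was called (limma adjusted p = 0.367 and 0.245). With slide as a block the call held (limma adjusted p = 0.0361). With the pancreas marker level as a covariate the shift was -1.07 and the call was lost (limma adjusted p = 0.0688). It was lost as well with cyclic loess normalization (-0.97, limma adjusted p = 0.0577) and without both control replicate 2 and 250 ng/L replicate 3, which had the extremes of pancreas marker level (-1.04, limma adjusted p = 0.0901). Leaving out any one of 6 arrays ended the call too, namely controls 1, 3 and 5 and high-dose replicates 2, 3 and 4, with shifts between -1.20 and -0.95 over all arrays left out in turn.

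The enzymes ahead of FTCD in the pathway were not called at 250 ng/L, against 2.7% of all probes called. So few probes cannot show a difference from that share. HAL, histidine ammonia-lyase, removes ammonia from histidine to make urocanate, and its 3 probes had shifts of 0.05, 0.04 and 0.14 at 250 ng/L and -0.24, 0.05 and 0.10 at 50 ng/L. UROC1, urocanate hydratase, acts next and has 2 probes. UROC1-a was 2.39, 2.29, 2.74, 2.15 and 2.99 on control arrays, 1.86, 2.34, 2.69, 2.87 and 2.09 at 50 ng/L, and 1.75, 1.80, 2.54, 1.82 and 1.96 at 250 ng/L. The high-dose arrays other than replicate 3 lay below every control array. Its shift at 250 ng/L was -0.54 ± 0.240 (limma adjusted p = 0.339). UROC1-b gave no usable comparison: it ran from -6.88 to -0.80 over the arrays, and its within-group SD of 2.27 was larger than that of 99.2% of the probes tested. The 2 UROC1 probes are on different contigs, and the SD of their difference within groups was 2.11. Imidazolonepropionase, which acts between UROC1 and FTCD, was outside the name search and the naming rule, and is given after its values were seen. Its probe had a shift of -0.02 ± 0.264 at 250 ng/L, and one annotated as probable imidazolonepropionase had 0.04 ± 0.264.

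Glutamate dehydrogenase takes the amino group off glutamate in the mitochondrion. GDH-a was 0.13, -0.75, 0.48, 0.42 and 0.49 on control arrays. Low-dose arrays gave 0.42, -0.15, 0.83, 0.11 and -0.63, and high-dose arrays 0.95, 1.61, 1.61, 1.42 and 1.30. All 5 high-dose arrays lay above all 10 others, and the control and low-dose arrays overlapped. The shift at 250 ng/L was 1.23 ± 0.292 against control (limma adjusted p = 0.0322), which is 2.34-fold higher, and 1.26 ± 0.292 against 50 ng/L (limma adjusted p = 0.0531). At 50 ng/L it was -0.04 ± 0.292 against control (limma adjusted p = 0.999).

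Within slides the GDH-a shift at 250 ng/L was 1.70 on slide 1 and 0.90 on slide 2, with neither called. With slide as a block it was 1.27 (limma adjusted p = 0.0337). The call was lost with the pancreas marker level as a covariate (1.15, limma adjusted p = 0.0784) and without control replicate 2 and 250 ng/L replicate 3, the arrays with the extremes of pancreas marker level (0.94, limma adjusted p = 0.12). Leaving out control 1, control 2 or any high-dose array other than replicate 1 ended it as well. The other 2 probes named for this enzyme were not called. GDH-b had a shift of -0.40 ± 0.555 and GDH1, named for the mitochondrial form, one of -0.43 ± 0.333. Both were dim, being well above background on 12 and 14 arrays, and the SD of the difference between GDH-a and GDH-b within groups was 0.725.

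**Figure D2:**
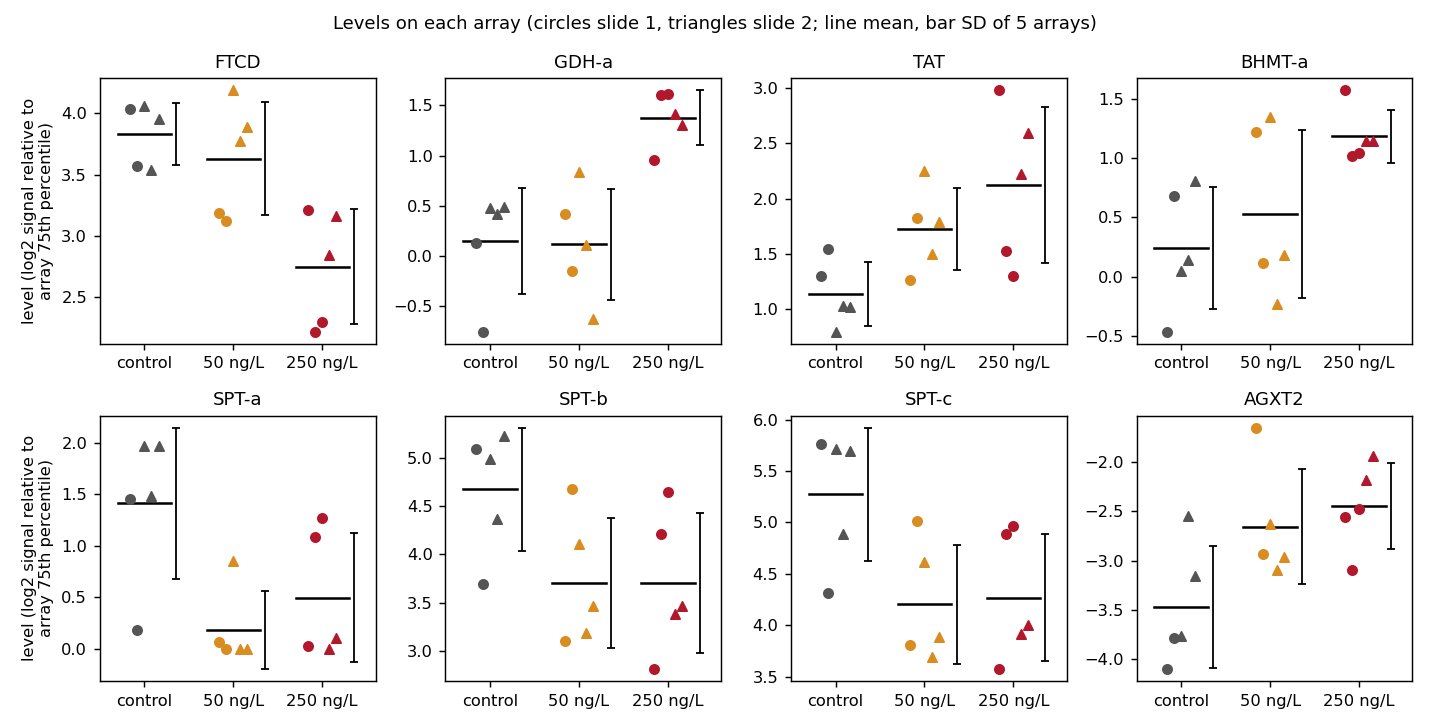
Level on each array (y axis, log2 signal relative to the array's 75th percentile) of 8 probes in control, 50 ng/L and 250 ng/L groups, with circles for slide 1, triangles for slide 2, a line for the mean and a bar for the SD of 5 arrays. FTCD at 250 ng/L lies wholly below control and GDH-a wholly above it, while SPT-a has 6 arrays within 0.1 of 0.

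Among the aminotransferases none of the 11 tested probes was called in any comparison, against 2.7% of all probes at 250 ng/L. SPT, serine--pyruvate aminotransferase, also acts as alanine--glyoxylate aminotransferase and so clears glyoxylate. Its probes SPT-b and SPT-c lie on the same contig. SPT-c was 5.76, 4.31, 5.71, 4.89 and 5.69 on control arrays, 3.81, 5.01, 4.61, 3.69 and 3.89 at 50 ng/L, and 3.58, 4.89, 4.97, 3.92 and 3.999 at 250 ng/L. Control replicate 2, which had the least pancreas marker signal, was the lowest control. Both it and control replicate 4 lay within the ranges of both exposed groups. The shift was -1.07 ± 0.370 at 50 ng/L (limma adjusted p = 0.773) and -1.01 ± 0.370 at 250 ng/L (limma adjusted p = 0.226). SPT-b, at 5.09, 3.70, 4.98, 4.36 and 5.22 on control arrays, followed SPT-c closely, with an SD of their difference within groups of 0.139. Its levels were 3.10, 4.68, 4.11, 3.18 and 3.47 at 50 ng/L and 2.82, 4.22, 4.64, 3.38 and 3.47 at 250 ng/L. The shifts were -0.96 ± 0.403 and -0.97 ± 0.403 (limma adjusted p = 0.999 and 0.302).

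SPT-a, on another contig, lay close to the array's 75th percentile on several arrays, and this was looked for after its values were seen. Its control levels were 1.46, 0.18, 1.97, 1.48 and 1.97. On 50 ng/L replicates 2, 4 and 5 and 250 ng/L replicate 4 its level was within 0.005 of 0, the array's own 75th percentile. It was the 1 probe of 7152 to be that close to the percentile on 3 or more arrays. On 6 arrays it was within 0.1 of 0, 4 of them at 50 ng/L and 2 at 250 ng/L, and the lowest level was -0.00348. The remaining levels were 0.06 and 0.86 at 50 ng/L (replicates 1 and 3) and 0.02, 1.09, 1.27 and 0.10 at 250 ng/L (replicates 1, 2, 3 and 5). In the authors' deposited table it also lay within 0.1 of the column's 75th percentile on 6 arrays. That table comes from the same scans. Clumping at any value was less rare, since 343 probes had 3 or more arrays inside a window of 0.01 and 12 had 4 or more. SPT-a followed SPT-b and SPT-c less closely than these followed each other, with SDs of the difference within groups of 0.450 and 0.393 against 0.139. The own within-group SDs of SPT-a, SPT-b and SPT-c, 0.597, 0.679 and 0.617, were larger than the SDs of their differences. SDs of difference of that size also occurred elsewhere, as 0.478 for ALT-c and ALT-d on the same contig. There the own SDs, 0.263 and 0.401, were smaller than that of the difference. Probes of 4-hydroxyphenylpyruvate dioxygenase on different contigs differed by 0.188 to 0.345. On 50 ng/L replicate 2, where SPT-b and SPT-c were the highest of their group, SPT-a was at the percentile. The SPT-a shifts were -1.23 ± 0.359 at 50 ng/L and -0.92 ± 0.359 at 250 ng/L (limma adjusted p = 0.378 and 0.269). They include the values near the percentile, and their worth as a further measurement of the enzyme was not tested. Whether anything holds the probe near the percentile was not tested either.

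TAT, tyrosine aminotransferase, starts tyrosine breakdown. It was 1.30, 1.54, 0.80, 1.02 and 1.02 on control arrays, 1.27, 1.83, 2.25, 1.50 and 1.78 at 50 ng/L, and 2.98, 1.53, 1.30, 2.23 and 2.60 at 250 ng/L. High-dose replicates 1, 4 and 5 lay above all controls, and replicates 2 and 3 among them. The shift was 0.59 ± 0.303 at 50 ng/L and 0.99 ± 0.303 at 250 ng/L (limma adjusted p = 0.999 and 0.123). AGXT2, a mitochondrial aminotransferase that also uses glyoxylate, was -4.10, -3.78, -3.76, -2.55 and -3.16 on control arrays. It was -1.65, -2.93, -2.63, -3.10 and -2.96 at 50 ng/L and -2.55, -3.09, -2.48, -2.18 and -1.94 at 250 ng/L. Control replicate 4 reached into both exposed groups, and the other controls lay below every exposed array. The shifts were 0.81 ± 0.335 and 1.02 ± 0.335 (limma adjusted p = 0.999 and 0.161).

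ALT, alanine aminotransferase, links alanine to pyruvate and has 4 tested probes. The SD of the difference within groups was 0.204 for ALT-b and ALT-c, on different contigs, and 0.739 for ALT-a and ALT-b. ALT-c was 3.19, 3.18, 3.20, 2.54 and 3.23 on control arrays, 3.03, 2.50, 2.71, 2.35 and 3.01 at 50 ng/L, and 3.33, 3.15, 3.25, 3.35 and 3.60 at 250 ng/L. All high-dose arrays lay above all low-dose arrays, as for 2.02% of all probes, and the shift between the doses was 0.62 ± 0.193 (limma adjusted p = 0.247). ALT-d, on the same contig, had 0.31 ± 0.258, ALT-b 0.33 ± 0.251 and ALT-a -0.24 ± 0.461 between the doses. The 95% interval for ALT-a ran from -1.22 to 0.74, which takes in the shifts of the other ALT probes. GOT1, the cytoplasmic aspartate aminotransferase, was -4.09, -4.31, -4.72, -4.35 and -3.82 on control arrays, -4.58, -4.32, -3.01, -5.31 and -4.88 at 50 ng/L, and -3.32, -4.23, -3.90, -4.06 and -3.63 at 250 ng/L. Its groups overlapped, with a shift of 0.59 ± 0.348 between the doses (limma adjusted p = 0.745). GOT2, the mitochondrial form, had 0.12 ± 0.285 at 250 ng/L against control.

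The steps that open the aromatic ring gave 0 calls in any comparison by limma over 10 probes, and 0 had an unadjusted p under 0.05. Over all probes, 0.553% were called for the low dose, 2.7% for the high dose and 1.09% for the doses against each other, and 4.1%, 13.6% and 8.12% had such a p. At those shares 10 probes are too few to read a difference from. HPD, 4-hydroxyphenylpyruvate dioxygenase, acts after TAT, and its 4 probes lay between 0.14 and 0.46 at 250 ng/L and between 0.21 and 0.49 at 50 ng/L. These HPD probes followed each other over the arrays, with SDs of pairwise differences within groups of 0.188 to 0.345. HGD, homogentisate 1,2-dioxygenase, had -0.04 ± 0.320 and FAH, fumarylacetoacetase, which completes the route, -0.16 ± 0.243 at 250 ng/L. TDO, tryptophan 2,3-dioxygenase, opens the ring of tryptophan. Its level was 5.37 ± 0.401 for control, 5.45 ± 0.439 for low-dose and 5.54 ± 0.383 for high-dose arrays (SD, n = 5 each). Its 95% interval for the shift at 250 ng/L ran from -0.39 to 0.73.

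Methionine and homocysteine enzymes gave 0 calls by limma over 4 tested probes at 250 ng/L, where all 4 shifts were above 0 and 2 had an unadjusted p under 0.05, against 2.7% called and 13.6% with such a p over all probes. These 2, BHMT-a and BHMT-b, lie on 1 contig and are close to a single measurement. At those shares 4 probes are too few to read a difference from. BHMT, betaine--homocysteine S-methyltransferase, remakes methionine from homocysteine with betaine as methyl donor. BHMT-a was -0.46, 0.68, 0.05, 0.14 and 0.81 on control arrays, 1.22, 0.12, 1.34, -0.23 and 0.18 at 50 ng/L, and 1.57, 1.02, 1.04, 1.14 and 1.14 at 250 ng/L. All high-dose arrays lay above all controls, as for 2.49% of all probes, while the low-dose arrays fell into both ranges. The shift was 0.28 ± 0.319 at 50 ng/L and 0.94 ± 0.319 at 250 ng/L (limma adjusted p = 0.999 and 0.179). With the pancreas marker level as a covariate the latter was 1.23 and passed (limma adjusted p = 0.0263). BHMT-b, on the same contig, was 2.48 ± 0.573 for control, 2.84 ± 0.655 for low-dose and 3.31 ± 0.419 for high-dose arrays (SD, n = 5 each), and the SD of its difference from BHMT-a within groups was 0.171. BHMT-c, on another contig, had a shift of 0.24 ± 0.388. MAT2, a form of S-adenosylmethionine synthetase, had 0.82 ± 0.426 at 250 ng/L, where replicate 3 stood at 0.17 and the others between -2.40 and -1.78. That replicate also had the most pancreas marker signal, whose part in this value was not tested.

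Arginase, which splits arginine into ornithine and urea, has 4 probes under 4 names, and these spread widely. ARG2 was 1.67, 0.02, 2.12, 1.30 and 0.50 on control arrays, 2.27, -1.10, 1.84, 1.78 and 1.41 at 50 ng/L, and -1.14, 0.74, 0.54, 0.92 and -0.14 at 250 ng/L. Its groups overlapped in every comparison. The shift was -0.94 ± 0.601 at 250 ng/L against control (limma adjusted p = 0.569) and -1.05 ± 0.601 between the doses (limma adjusted p = 0.731). ARG1 had -1.12 ± 0.636 and ARGH, named as hepatic, -1.19 ± 0.761 at 250 ng/L (limma adjusted p = 0.493 and 0.569). The within-group SDs of these 3 probes, 1.104 for ARG1, 1.04 for ARG2 and 1.33 for ARGH, were larger than those of at least 90.6% of probes. Replicate 2 was the lowest of the 50 ng/L arrays for each of them, and ARG2 and ARGH differed by an SD of 0.331 within groups. ARGN, the non-hepatic form, did not follow them and had 0.30 ± 0.327.

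**Figure D3:**
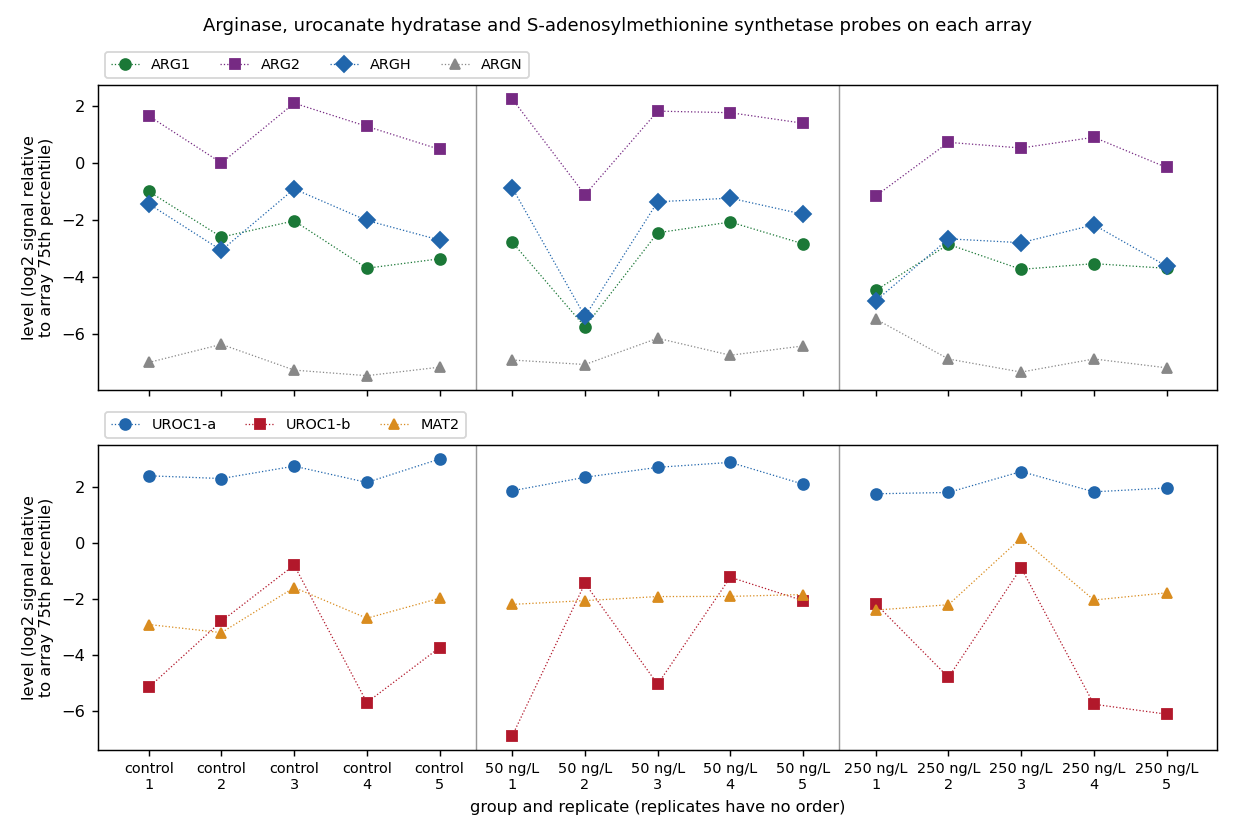
Level on each of the 15 arrays (y axis, log2 signal relative to the array's 75th percentile) of 4 arginase probes above, and of UROC1-a, UROC1-b and MAT2 below, with dotted lines joining the arrays of a group only to guide the eye. Among the 50 ng/L arrays ARG1, ARG2 and ARGH are lowest on replicate 2, at -5.73, -1.10 and -5.37, and UROC1-b runs from -6.88 to -0.80.

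The name search also returned 2 probes of other functions, which are counted among the 40 tested enzyme probes above. GFAT1, glucosamine--fructose-6-phosphate aminotransferase 1, starts hexosamine synthesis and was well above background on 6 arrays. HERPUD1 is a homocysteine-responsive protein of the endoplasmic reticulum. Their shifts at 250 ng/L were 0.48 ± 0.391 and -0.15 ± 0.391, and neither was called.

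Variation among arrays of a group was somewhat larger for these enzymes than over the whole array, with a median within-group SD of 0.550 for the 40 probes and 0.473 for all 6145. At 250 ng/L, 26 of the 40 shifts were smaller than 0.5 in size, and 6 reached 1. Slide by slide, 25 of 40 shifts at 250 ng/L, 23 of 40 at 50 ng/L and 15 of 40 between the doses had the same sign on both slides. The share over all probes was not counted, and some enzymes have several probes among the 40. These counts therefore do not measure agreement or disagreement between the slides.

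**Figure D4:**
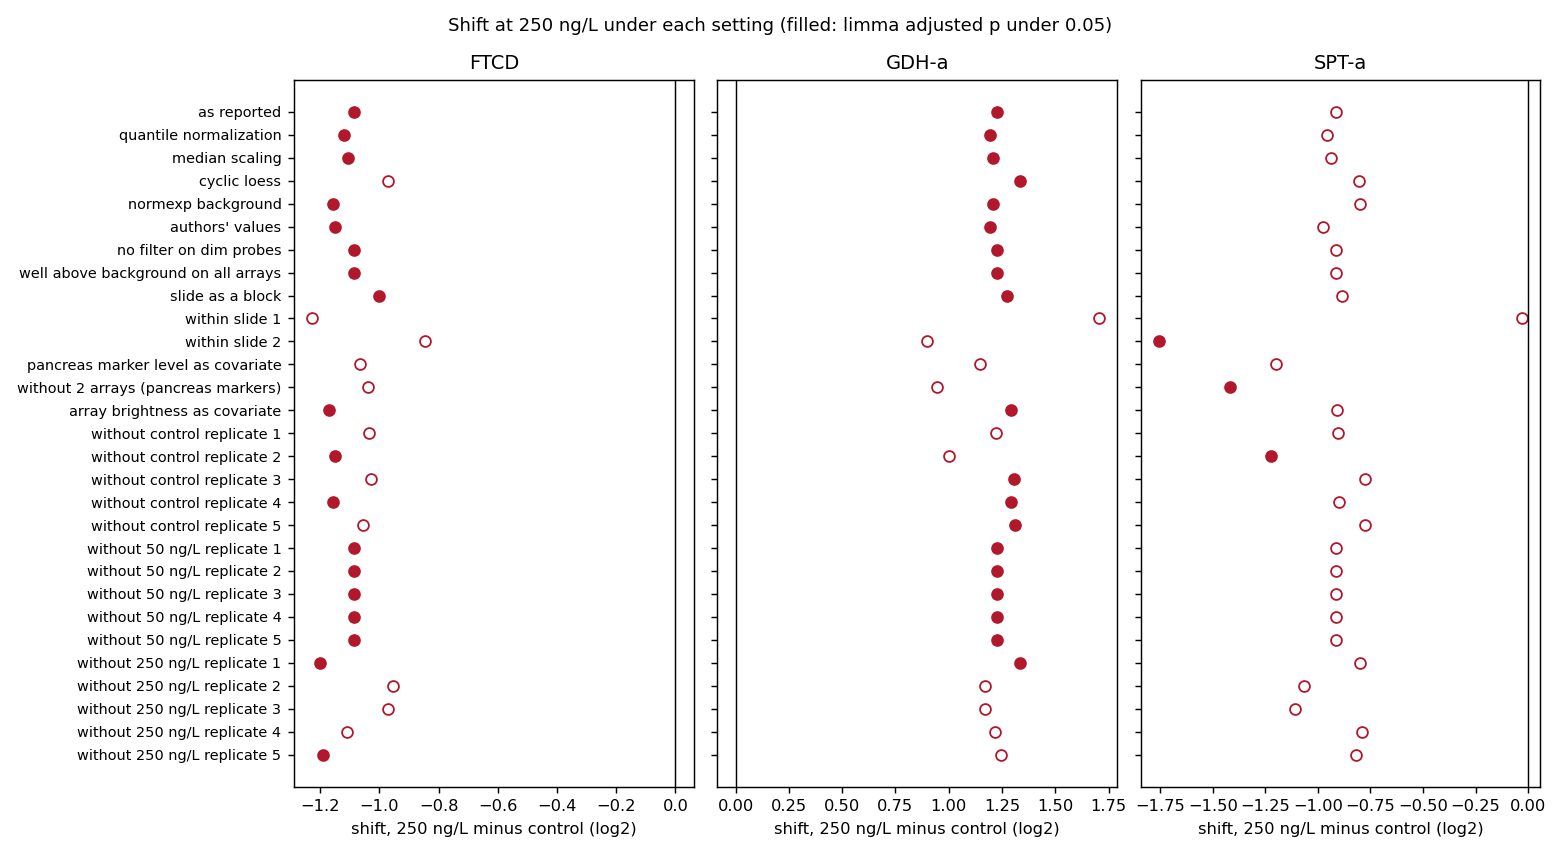
Shift at 250 ng/L against control (x axis, log2) of FTCD, GDH-a and SPT-a under the reported setting and each alternative (rows), filled where the limma adjusted p was under 0.05. FTCD stays between -1.23 and -0.85 and GDH-a between 0.90 and 1.70, with filled and open points in both, and SPT-a runs from -1.76 to -0.03.

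Another 52 probes were named for further enzymes of amino acid metabolism, and 49 were tested. In each comparison 0 of the 49 were called by limma. Over all probes 0.553% were called for the low dose, 2.7% for the high dose and 1.09% for the doses against each other. In the same order, 1, 4 and 2 of the 49 had an unadjusted p under 0.05, against 4.1%, 13.6% and 8.12% of all probes. At those shares 49 probes are too few to read a difference from. Their median shift was 0.04 at 250 ng/L, against -0.05 over all probes. The smallest p at 250 ng/L was that of methylmalonyl-CoA epimerase, of the propionate route, at -0.46 ± 0.183 (limma adjusted p = 0.271). Betaine aldehyde dehydrogenase c, of the enzyme that makes the betaine used by BHMT, had 0.88 ± 0.370 (limma adjusted p = 0.304). Probes a and b of that enzyme had 0.05 ± 0.310 and 0.47 ± 0.296 at 250 ng/L. In the same list methionine adenosyltransferase II, beta, had a smaller p and was lower, at -0.42 ± 0.171 (limma adjusted p = 0.285). D-amino-acid oxidase, which oxidises D-amino acids, had -0.79 ± 0.243 between the doses (limma adjusted p = 0.23), with all high-dose arrays below all low-dose arrays, as for 0.911% of all probes. Against control it had 0.56 ± 0.243 at 50 ng/L and -0.23 ± 0.243 at 250 ng/L (limma adjusted p = 0.999 and 0.746). In the same list the kidney isoform of glutaminase went the other way between the doses, at 1.05 ± 0.405 (limma adjusted p = 0.446).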

How the data were processed

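Cy3 intensity values on 15 arrays, as deposited by the authors, came, per the file headers, from Agilent Feature Extraction 10.7.1.1 (protocol GE1_107_Sep09). The authors also deposited a table of log2 values (column medians 7.66 to 7.72), with no statement of how it was made. It served as an alternative, and 0 value columns were unused. Control spots and outlier spots (0 to 29 an array) were left out, and 0 spots were saturated. The 2 spots of a probe were averaged on the log2 scale and the array's 75th percentile was subtracted. Probes well above background on at least 5 arrays were fitted with limma 3.58.1 in R 4.3.3 (lmFit and eBayes, a mean per group, 12 residual degrees of freedom), which was tested on simulated data. The normexp alternative (offset 50) used median signals, since mean signals are not among the columns.

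The members, lists and tests were chosen with earlier results of these data known. Values on each array are given for called members and, in each comparison, the 5 others with the smallest p. In each role 1 more member was picked for naming by its mean level; this ranks nothing, since levels of different probes are not comparable. Among the other enzymes, up to 2 of smallest p per list and comparison could be named. Other settings covered normalization, background, the filter on dim probes, slide, pancreas marker level, array brightness and each array left out. Probe sequences and positions were not used here. The values of 1 gene's 3 probes are not reported here; these probes enter the counts only.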

Additional observations from a re-analysis of the deposited data

Results flagged for a closer look

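In 14 of 120 groups of 5 arrays, 1 array stood apart from the other 4 by Dixon's criterion, where chance gives about 6 (1 in 20). The 120 groups are not independent, so these counts do not measure an excess. ARG1, ARG2 and ARGH flagged the same array, as did ALT-b and ALT-c. No cause was tested for any of the 14. Control replicate 4 was the lowest control for ALT-b (2.51, next 3.11) and ALT-c (2.54, next 3.18), and control replicate 5 for ALT-d (0.28, next 0.75). Control replicate 3 was the highest for GDH1 (-4.43, next -5.29). Control replicate 2 was the lowest for HAL-c (-0.01, next 0.61) and SPT-a (0.18, next 1.46). At 50 ng/L, replicate 2 was the lowest for ARG1 (-5.73, next -2.82), ARG2 (-1.10, next 1.41) and ARGH (-5.37, next -1.78), and replicate 3 the highest for SPT-a (0.86, next 0.06). For SPT-a both come from a probe that clumped at the array's 75th percentile. At 250 ng/L, replicate 3 was the highest for UROC1-a (2.54, next 1.96) and MAT2 (0.17, next -1.78), and replicate 1 for ARGN (-5.46, next -6.86) and BHMT-a (1.57, next 1.14).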

How the results depend on the processing

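Each comparison was refitted under 13 other settings and with each of 15 arrays left out; leaving out the 2 arrays farthest apart in pancreas markers (control replicate 2 and 250 ng/L replicate 3) and array brightness as a covariate were chosen after seeing the data. At 250 ng/L against control, the 2 enzyme calls became 1 with cyclic loess (GDH-a; FTCD -0.97, limma adjusted p = 0.0577), 0 within slide 1, 1 within slide 2 (SPT-a), 1 with the pancreas covariate (BHMT-a) and 0 to 3 with arrays left out. Without the 2 pancreas arrays there were again 2, but of other probes, SPT-a and TAT. At 50 ng/L, 1 (SPT-a) was called without those 2 arrays, and 0 to 1 with arrays left out, the 1 without control replicate 2. Between the doses, 1 (GDH-a) was called with cyclic loess and with normexp, and 0 to 1 with arrays left out, the 1 without control replicate 2 or 50 ng/L replicate 3. The SPT-a calls include its clumped values. Over all probes, 50 ng/L gave 3 calls within slide 1, 20 with brightness and 22 to 36 with arrays left out. At 250 ng/L there were 42 and 109 within slides 1 and 2 and 122 to 191 with arrays left out. Between the doses there were 44 with normexp, 0 within either slide and 34 to 66 with arrays left out. The GDH-a shift at 50 ng/L, near 0, changed sign with cyclic loess (0.01), within slide 1 (0.445) and with brightness (0.089), and ran from -0.261 to 0.15 with arrays left out. The FTCD shift at 50 ng/L was 0.097 within slide 2. TAT at 250 ng/L was called without 250 ng/L replicate 3 (1.20) and AGXT2 without control replicate 4 (1.25). Of the calls at 250 ng/L, 75.9% were higher, and 65.8% in the authors' values. Normexp moved the median of all probes by 0.190, 0.104 and -0.140 in the 3 comparisons. The median enzyme shift at 250 ng/L ran from -0.001 to 0.277 over the other settings and -0.014 to 0.163 with arrays left out. At 50 ng/L it ran from -0.086 to 0.141 and -0.102 to 0.077, and between the doses from -0.043 to 0.149 and -0.003 to 0.173. The SD of the array median over these probes within groups was 0.305. That SD describes single arrays and not a difference of group means, so it gives no test of these shifts. Signal over background limits the dim probes ARGN, GDH-b, GDH1 and GFAT1. No paired analysis was possible because the labels give no replicate numbers.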
